A study of Mus musculus with 9 samples.

Results

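Transcripts of 9 genes of the mature B cell, Cd79a, Cd79b, Ms4a1, Cr2, Fcer2a, Cd22, Pax5, Ebf1 and Blk, were read in the abdominal aorta of uMT mice, which are bred to lack B cells, as a check of that genotype. The genes were chosen by name, and every probe carrying one of these names in the scanner files was taken: 12 probes, 2 each for Cd79a, Cr2 and Pax5 and 1 each for the others, among 55681 probes on the array. The 9 arrays formed 3 groups of 3, all uMT on C57BL/6. The group uMT_Ca+IgG had 0.5 M CaCl2 applied around the aorta and was given mouse polyclonal IgG into the peritoneum. The group uMT_Ca had the CaCl2 alone, which is used to induce an aneurysm, and uMT_sham had saline in its place. Both CaCl2 groups were sampled at 7 days, and the design text gives no separate time for sham aortas. No aorta of a mouse with B cells was analysed here, so no level can be set against that of a B cell-replete vessel.

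Maturing B cells in the bone marrow must place a mu heavy chain on their surface to pass the pre-B stage. In uMT mice an exon for the membrane form of that chain is disrupted, and mature B cells are largely missing. All 3 groups carry this genotype, per the labels. Cd79a and Cd79b encode the signalling chains of the B cell receptor, Ms4a1 encodes CD20, Cr2 and Fcer2a encode the complement receptor CD21 and the low-affinity IgE receptor CD23, and Cd22 encodes an inhibitory lectin. Pax5 and Ebf1 encode transcription factors of B cell identity, Blk encodes a kinase of the receptor pathway, and Ebf1 is also expressed in adipocytes and mural cells of vessels.

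Each array was scaled by subtracting the 75th percentile of its log2 signals, so a level of 0 equals that percentile. The percentile was 270 to 455 signal units on uMT_Ca+IgG arrays, 381 to 496 on uMT_Ca arrays and 267 to 302 on uMT_sham arrays, and 54.9% to 59.9% of probes were well above background on an array, with 0 spots saturated. The labels do not say whether the 3 replicates of a group came from separate animals. The p-values set a difference between groups only against the spread of these arrays within groups, and that spread could be technical. The number of arrays limits the precision of every value. In whole aorta, fewer cells of a type and less RNA per cell cannot be told apart. Markers of the aortic wall were present, with Myh11, smooth muscle myosin, well above background on every uMT_Ca and uMT_sham array. Replicate 3 of uMT_Ca+IgG stood apart from the other arrays, at -75.0 on the second principal component of all tested genes against 0.51 to 16.0 for the other 8. The 3 uMT_Ca arrays and replicate 1 of uMT_Ca+IgG lay in the first row of 1 slide, replicates 1 and 2 of uMT_sham and 2 and 3 of uMT_Ca+IgG in its second row, and replicate 3 of uMT_sham on another slide, so no row of a slide held both uMT_Ca and uMT_sham.

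The intron-spanning probes of Pax5, Cd79a and Blk, the brighter Pax5 probe and the mu constant region probe are shown as printed on the array, 60 bases each, 5′ to 3′, since they differ in whether they cross an intron. The brighter Cd79a probe, well above background on all 9 arrays, is not shown. Coordinates are those of mm9, per the files. The first Pax5 probe (chr4:44550354-44582908, minus strand) and the Blk probe (chr14:63997333-63998470, minus strand) cross an intron, as does the second Cd79a probe (chr7:25684357-25684614, plus strand), so each reads spliced RNA. The second Pax5 probe lies in 1 stretch (chr4:44658421-44658480, minus strand), and so does the mu constant region probe (chr12:114659630-114659689, minus strand).
Pax5, intron-spanning: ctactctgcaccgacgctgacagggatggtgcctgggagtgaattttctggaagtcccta
Pax5, 1 stretch: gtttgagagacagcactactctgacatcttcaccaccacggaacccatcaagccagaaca
Blk: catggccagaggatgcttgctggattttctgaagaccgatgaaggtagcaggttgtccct
Cd79a, intron-spanning: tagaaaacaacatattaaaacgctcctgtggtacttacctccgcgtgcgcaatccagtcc
mu constant region: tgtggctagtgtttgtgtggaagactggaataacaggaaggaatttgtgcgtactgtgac

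The altered gene itself was read first. No probe is named Ighm in the scanner files, but the mu constant region probe above is described there as immunoglobulin heavy constant mu, and it was found through that description and after values of these data were known. Its level was 1.88, 3.93 and 1.88 on uMT_Ca+IgG arrays, 1.66, 1.65 and 0.66 on uMT_Ca arrays and -1.15, -1.34 and -2.95 on uMT_sham arrays, all 9 well above background. The 3 groups did not overlap, with uMT_sham lowest. With every kept probe tested, where 32.6% of probes were called in uMT_Ca and 21.7% in uMT_Ca+IgG against uMT_sham, it was higher by 3.14 ± 0.67 in uMT_Ca than in uMT_sham (SE, log2, limma adjusted p = 0.0112) and by 4.37 ± 0.67 in uMT_Ca+IgG than in uMT_sham (limma adjusted p = 0.0037). The difference of 1.24 between uMT_Ca+IgG and uMT_Ca did not pass (limma adjusted p = 0.9999). A constant region probe outside the disrupted membrane exon would read RNA of either allele, and the position of this probe relative to that exon was not determined here, so it checks nothing about the genotype.

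Probes for the gamma 1 constant region, also found by description, were not well above background on any uMT_sham array and were well above it on all arrays of both CaCl2 groups. The brighter of the 2 read 2.99, -0.42 and 2.56 on uMT_Ca+IgG arrays, -1.11, 1.78 and 0.60 on uMT_Ca arrays and -6.35, -6.21 and -6.18 on uMT_sham arrays. It was at least 61.0-fold higher in uMT_Ca+IgG than in uMT_sham (limma adjusted p = 0.0015) and at least 25.0-fold higher in uMT_Ca (limma adjusted p = 0.0025). Such a bound sets the mean of the brighter group against a floor in the dimmer one, which on each array was the dimmest signal that still passed the background call, or the probe's own signal if that was higher. The other gamma 1 probe was at least 11.3-fold and 4.76-fold higher in these comparisons. Both gamma 1 probes passed the filter only through the CaCl2 groups, so their p-values are no independent support. The p-values test the measured log2 differences, not the bounds. A gamma 2c probe read -4.49, -4.39 and -2.25 on uMT_Ca+IgG arrays, -4.63, -3.86 and -3.98 on uMT_Ca arrays and -3.01, -3.51 and -2.79 on uMT_sham arrays, and passed in neither comparison with sham (limma adjusted p = 0.448 for uMT_Ca+IgG and 0.173 for uMT_Ca).

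**Figure D1:**
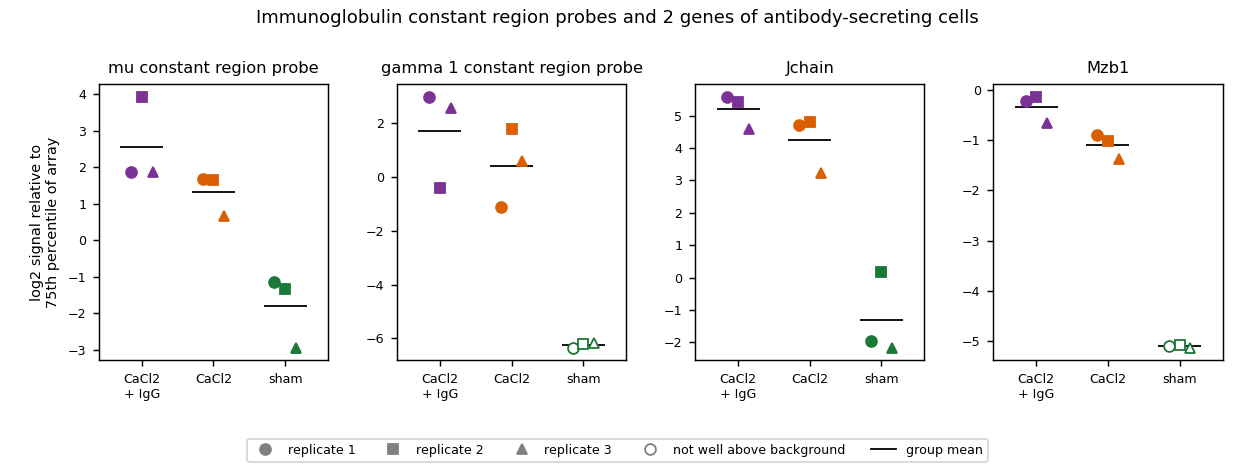
Log2 signal relative to the 75th percentile of the array for the mu and the brighter gamma 1 constant region probe, Jchain and Mzb1, for 3 arrays per group. Lines are group means and open symbols are arrays not well above background: uMT_sham is lowest for all 4, and all its arrays are open for gamma 1 and Mzb1.

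Detection came next. Of 108 readings, 12 probes on 9 arrays, 84 were well above background: 29 of 36 on uMT_Ca+IgG arrays, 30 of 36 on uMT_Ca arrays and 25 of 36 on uMT_sham arrays. On all 9 arrays, 6 of 12 probes passed (1 each of Cd79a, Cd79b, Cr2, Cd22, Ebf1 and Ms4a1), a share to be read against 59.3% of all probes with a gene symbol. On no array, 1 probe passed, the intron-spanning Pax5 probe, against 23.2% of all probes with a symbol. With the looser detection call of the scanner software, positive and significant, 101 of 108 readings passed.

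Blk was the one gene at background in nearly every reading. It read -4.75, -4.92 and -5.21 on uMT_Ca+IgG arrays, -4.73, -5.42 and -5.78 on uMT_Ca arrays and -6.28, -6.13 and -6.12 on uMT_sham arrays. The first uMT_Ca array alone was well above background, so Blk did not pass the filter and was not tested in the main fit. By the looser call of the scanner software it was detected on all 6 CaCl2 arrays and on no sham array, and the CaCl2 arrays lay above the sham arrays. With no filter on dim probes, over 24113 genes, the difference from uMT_sham was 1.22 ± 0.27 in uMT_Ca+IgG (SE, log2, limma adjusted p = 0.0186) and 0.87 ± 0.27 in uMT_Ca (limma adjusted p = 0.0362), from readings of which 1 of 9 was well above background. Of all genes in that fit, 16.2% were called in uMT_Ca+IgG and 35.8% in uMT_Ca. The other 8 genes were tested among 16632 genes.

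Cd79b had the smallest adjusted p of the 8 tested members in both comparisons with sham. Its level was 1.56, 1.04 and 2.23 on uMT_Ca+IgG arrays, 0.68, 1.01 and 2.06 on uMT_Ca arrays and -0.68, -0.9995 and -1.76 on uMT_sham arrays. All 6 CaCl2 arrays lay above all 3 sham arrays, and the CaCl2 groups overlapped each other. It rose by 2.39 ± 0.44 in uMT_Ca (SE, log2, limma adjusted p = 0.0050) and by 2.76 ± 0.44 in uMT_Ca+IgG (limma adjusted p = 0.0031), both against uMT_sham. With slide row as a block the rise in uMT_Ca was 2.73 (adjusted p = 0.0144). That block counted the first rows of both slides as 1, so replicate 3 of uMT_sham shared it with uMT_Ca. No row of a slide held both uMT_Ca and uMT_sham, so the fit cannot separate row from CaCl2. Within the second slide row alone, with 2 arrays a group, the difference in uMT_Ca+IgG was 2.48 (adjusted p = 0.0532).

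Cd79a, the partner chain, had positive differences that did not pass. Its brighter probe read -0.66, -1.25 and 0.11 on uMT_Ca+IgG arrays, -1.84, -1.81 and 0.16 on uMT_Ca arrays and -2.61, -2.11 and -1.77 on uMT_sham arrays. The uMT_Ca+IgG arrays lay above the sham arrays, while replicates 1 and 2 of uMT_Ca lay among them. The differences of 1.00 ± 0.57 for uMT_Ca (SE, log2, limma adjusted p = 0.194) and 1.56 ± 0.57 for uMT_Ca+IgG (limma adjusted p = 0.0720) against uMT_sham did not pass. That of uMT_Ca+IgG passed under 7 of 22 other settings, among them median scaling (1.84, adjusted p = 0.0197), and that of uMT_Ca under 1 of 21. The intron-spanning Cd79a probe read -4.22, -4.82 and -3.51 on uMT_Ca+IgG arrays, -4.97, -4.69 and -3.44 on uMT_Ca arrays and -4.53, -6.28 and -5.04 on uMT_sham arrays. It was well above background on 2 of 3, 3 of 3 and 0 of 3 of these arrays, and the CaCl2 and sham arrays overlapped.

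Ms4a1 was even across sham arrays and uneven after CaCl2. It read -0.65, -1.74 and 0.50 on uMT_Ca+IgG arrays, -2.04, -1.82 and 0.16 on uMT_Ca arrays and -3.19, -3.11 and -3.02 on uMT_sham arrays. All 6 CaCl2 arrays lay above the sham arrays, which spanned 0.17 on the log2 scale. It rose by 2.47 ± 0.67 in uMT_Ca+IgG (SE, log2, limma adjusted p = 0.0256), and the difference of 1.87 ± 0.67 in uMT_Ca missed the threshold (limma adjusted p = 0.0569). Leaving out any of the 3 sham arrays or replicate 1 of uMT_Ca+IgG ended the call for uMT_Ca+IgG (adjusted p = 0.0653 to 0.0688) with the difference at 2.43 to 2.51. Without the odd replicate 3 of that group the rise was 1.91 (adjusted p = 0.0455). The difference in uMT_Ca passed under 9 of 21 other settings. Without replicate 3 of uMT_Ca it was 1.17 (adjusted p = 0.156).

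The complement and IgE receptor genes, markers of follicular and marginal zone B cells, overlapped between all groups. Cr2, on its brighter probe, read -1.29, -1.86 and 0.46 on uMT_Ca+IgG arrays, -1.98, -1.73 and 0.21 on uMT_Ca arrays and -1.84, -2.19 and -1.48 on uMT_sham arrays. The third replicate was highest in each group, and the other CaCl2 arrays lay within or just beside the sham range. The difference was 0.94 ± 0.70 for uMT_Ca+IgG (SE, log2, limma adjusted p = 0.335) and 0.67 ± 0.70 for uMT_Ca (limma adjusted p = 0.477) against uMT_sham. The other Cr2 probe read -3.43, -3.77 and -1.87, then -3.81, -4.46 and -2.27, then -4.23, -3.74 and -2.90 in uMT_Ca+IgG, uMT_Ca and uMT_sham arrays, also overlapping, and was below the background call on the first sham array.

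Fcer2a read -2.51, -3.70 and -2.03 on uMT_Ca+IgG arrays, -4.18, -3.62 and -2.11 on uMT_Ca arrays and -5.06, -3.37 and -2.99 on uMT_sham arrays. The first sham array was not well above background, and the groups overlapped. Neither the difference of 1.06 ± 0.71 for uMT_Ca+IgG (SE, log2, limma adjusted p = 0.284) nor that of 0.50 ± 0.71 for uMT_Ca (limma adjusted p = 0.599) passed. Without replicate 3 of uMT_Ca, the differences of Cr2 and Fcer2a between uMT_Ca and uMT_sham were -0.02 and -0.09.

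Cd22 and the transcription factor genes had negative differences against sham, none past the threshold. Cd22 read 0.14, -0.04 and 1.77 on uMT_Ca+IgG arrays, 0.21, 0.27 and 0.09 on uMT_Ca arrays and 0.97, 1.00 and 1.83 on uMT_sham arrays. The uMT_Ca arrays lay below all sham arrays, and replicate 3 of uMT_Ca+IgG lay within the sham range. The difference in uMT_Ca was -1.07 ± 0.46 (SE, log2, limma adjusted p = 0.0960), and that in uMT_Ca+IgG was -0.64 ± 0.46 (limma adjusted p = 0.314). Under other settings the Cd22 difference lay between -1.22 and -0.54 in uMT_Ca, and it passed under 3 of 21. In uMT_Ca+IgG it lay between -1.21 and -0.12 and passed under 2 of 22.

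Pax5 read -4.89, -4.56 and -2.36 on uMT_Ca+IgG arrays, -5.35, -4.29 and -4.35 on uMT_Ca arrays and -3.21, -3.01 and -2.08 on uMT_sham arrays, all on the probe in 1 stretch. The uMT_Ca arrays lay below all sham arrays, with the first of them not well above background, and replicate 3 of uMT_Ca+IgG again lay within the sham range. The difference was -1.90 ± 0.65 in uMT_Ca (SE, log2, limma adjusted p = 0.0512) and -1.17 ± 0.65 in uMT_Ca+IgG (limma adjusted p = 0.207). That in uMT_Ca passed under 8 of 20 other settings and that in uMT_Ca+IgG under 2 of 21. Leaving replicate 3 of uMT_Ca+IgG out of the fit put Pax5 and Cd22 past the threshold in uMT_Ca (adjusted p = 0.0056 and 0.0083) and in uMT_Ca+IgG (adjusted p = 0.0092 and 0.0093). The intron-spanning Pax5 probe lay between -7.45 and -5.22 on the 9 arrays and gives no fold.

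Ebf1 read 2.15, 1.89 and 1.59 on uMT_Ca+IgG arrays, 1.84, 2.17 and 1.32 on uMT_Ca arrays and 2.34, 2.37 and 2.38 on uMT_sham arrays. All CaCl2 arrays lay below the sham arrays, which were within 0.05 of each other. The differences of -0.58 ± 0.23 in uMT_Ca (SE, log2, limma adjusted p = 0.0764) and -0.48 ± 0.23 in uMT_Ca+IgG (limma adjusted p = 0.144) did not pass. With median scaling they were -0.046 (adjusted p = 0.927) and -0.20 (adjusted p = 0.758). The difference in uMT_Ca passed with array weights (adjusted p = 0.0396) and without replicate 2 of uMT_Ca (-0.78, adjusted p = 0.0349).

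**Figure D2:**
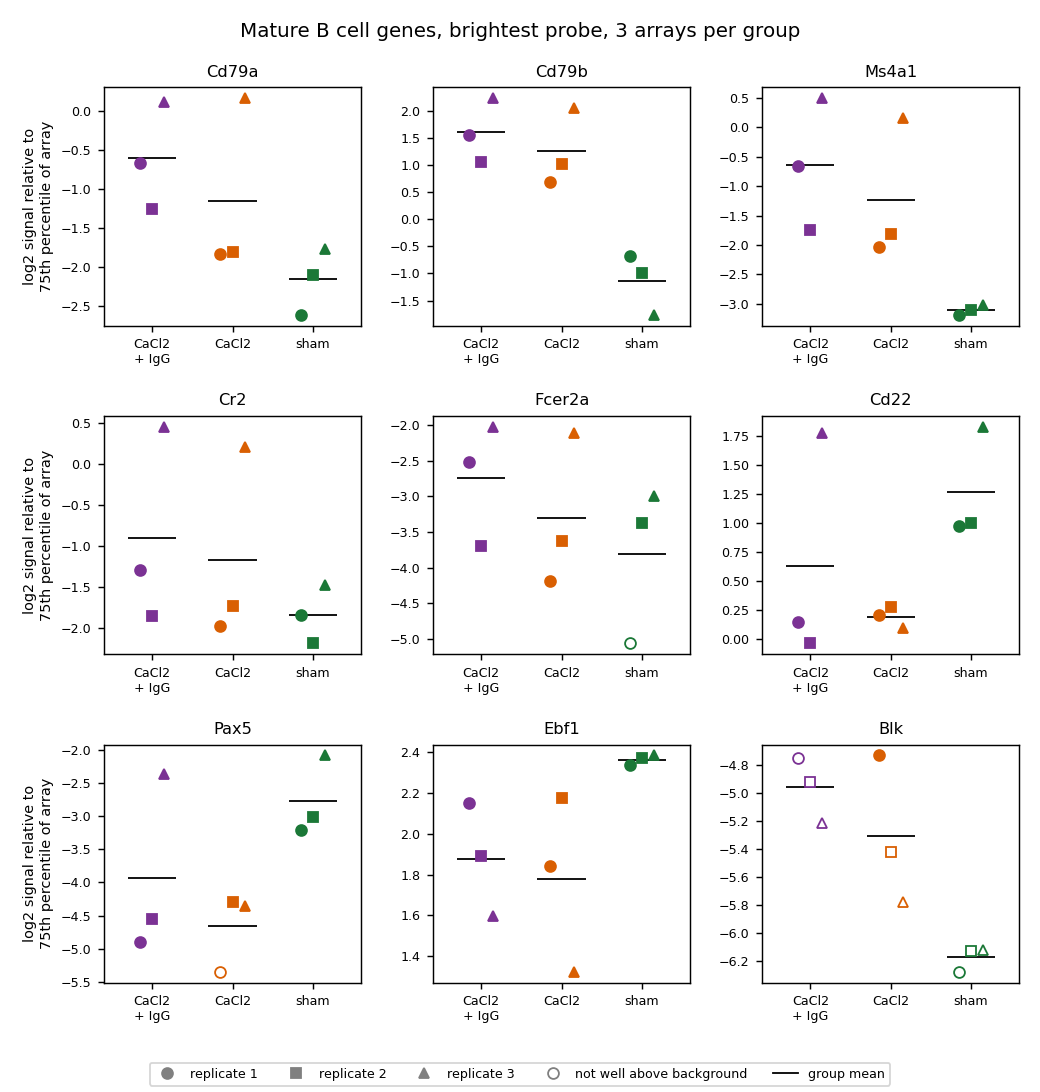
Log2 signal relative to the 75th percentile of the array for the 9 genes, on the brightest probe of each, for 3 arrays per group, with lines at group means. Cd79b, Ms4a1 and Blk separate both CaCl2 groups from uMT_sham above and Ebf1 does so below, and open symbols, not well above background, hold all but 1 reading of Blk and 1 each of Fcer2a and Pax5.

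In count, 2 of 8 tested members rose in uMT_Ca+IgG against uMT_sham, Cd79b and Ms4a1, and 0 fell, where 28.8% of all tested genes were called, 14.7% higher and 14.1% lower. In uMT_Ca against uMT_sham 1 of 8 rose, Cd79b, and 0 fell, where 36.3% of all tested genes were called, 17.3% higher and 19.0% lower. At an unadjusted p under 0.05 the members numbered 3 and 5 in these comparisons, where 41.8% and 48.2% of all genes passed. In uMT_Ca+IgG the arrays of 3 members lay wholly above those of uMT_sham (20.3% of all genes) and those of 1 wholly below (23.9%). In uMT_Ca those of 2 lay wholly above (24.6%) and those of 3 wholly below (31.9%). Both comparisons share the sham arrays. Without replicate 3 of uMT_Ca+IgG in the fit, 4 members were called in each comparison, Cd79b and Ms4a1 higher and Cd22 and Pax5 lower, where 40.2% of all genes were called in uMT_Ca+IgG and 44.5% in uMT_Ca. With the second slide row alone 0 members were called in uMT_Ca+IgG, where 7.77% of all genes were. The median difference of the 8 members was 1.00 in uMT_Ca+IgG and 0.59 in uMT_Ca, beside -0.10 and -0.08 for all tested genes. Scaling each array to its median instead shifted the difference of every gene by 0.28 and 0.54. Of all genes, 13.2% were then higher and 4.61% lower in uMT_Ca+IgG, and 23.5% higher and 5.77% lower in uMT_Ca. Median scaling put Cd79a past the threshold in uMT_Ca+IgG beside Cd79b and Ms4a1, and Cd79a, Ms4a1 and Pax5 in uMT_Ca beside Cd79b, at 1.54, 2.41 and -1.36.

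IgG made no difference that passed. In uMT_Ca+IgG against uMT_Ca, 0 of 8 members were called by limma and 0 at an unadjusted p under 0.05, where 0% of all genes were called and 1.47% had an unadjusted p under 0.05. The arrays of both groups overlapped for all 8 members, where 2.61% of all genes lay wholly above and 2.42% wholly below. All 8 differences were positive, between 0.10 for Ebf1 and 0.73 for Pax5, with a median of 0.50 beside -0.015 for all tested genes. With median scaling, which shifted this comparison by -0.26, they lay between -0.16 for Ebf1 and 0.47 for Pax5, with a median of 0.24. The 95% intervals were wide: -0.66 to 1.38 for Cd79b, -0.92 to 2.13 for Ms4a1 and -0.77 to 2.22 for Pax5. Without the odd replicate 3 of uMT_Ca+IgG, Cr2, Cd22 and Pax5 lay at -0.41, -0.14 and -0.06.

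**Figure D3:**
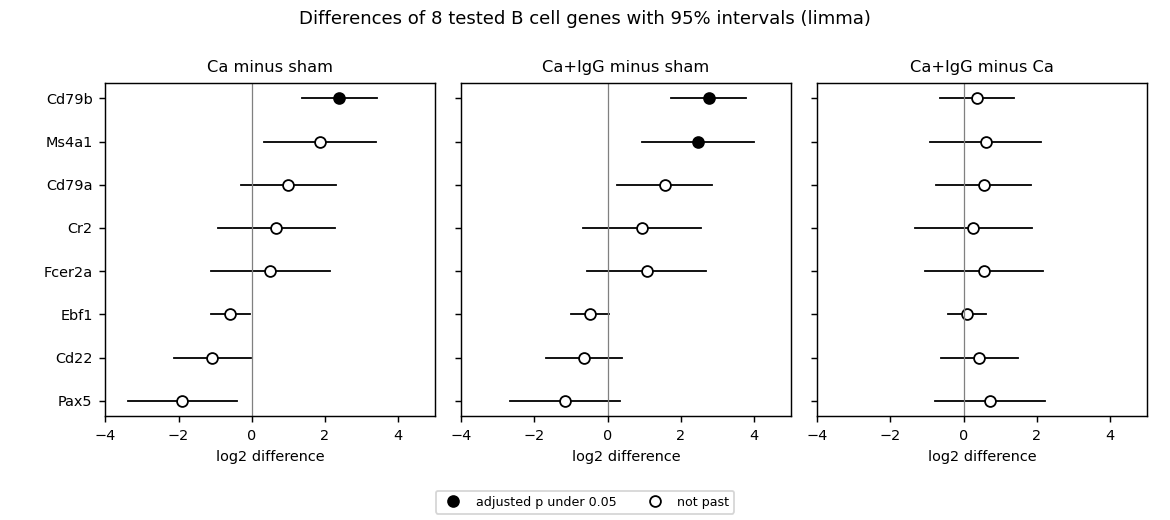
Log2 differences of the 8 tested members (points) with 95% intervals (lines) in 3 comparisons from limma, filled where the adjusted p was under 0.05. Cd79b is filled in both comparisons with sham and Ms4a1 in that of uMT_Ca+IgG, and no point is filled between uMT_Ca+IgG and uMT_Ca.

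The spread of the members between replicates is given beside that of all genes. Their median SD over 3 arrays was 0.93 in uMT_Ca+IgG, 0.89 in uMT_Ca and 0.46 in uMT_sham, beside 0.26, 0.20 and 0.20 for all tested genes. Replicate 3 was the highest of its group for 7 of 8 members in uMT_Ca+IgG, 5 of 8 in uMT_Ca and 7 of 8 in uMT_sham. Replicate numbers carry no stated pairing. Ebf1 was lowest on replicate 3 of both CaCl2 groups, and Cd79b was lowest on replicate 3 of uMT_sham.

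Likeness of pattern was measured as the root mean square difference over the 9 arrays after the mean of each gene was subtracted. The gene nearest to Cd79b was H2-Ob, a class II accessory chain (0.24 in log2 units, where Cd79b spanned 3.99), followed by Ap1s3 (0.28) and H2-DMb2 (0.28). Nearest to Ms4a1 was Vpreb3, a gene of the B lineage (0.40, where Ms4a1 spanned 3.68), followed by Mirt1 and the B cell lectin gene Siglecg. Cd79a lay nearest to Colq, Sidt1 and Lef1 (0.25 to 0.34), and Fcer2a to Colq and then Cd79a (0.40 and 0.45). Cr2 lay nearest to Bfsp2, Lrrc8b and Lmtk2 (0.38 to 0.41). Cd22 lay nearest to C630001G18Rik, Dnase2a and Gm2694 (0.14 to 0.15), Pax5 to Fam186b, Gm3002 and Kcnk15 (0.25 to 0.26), and Ebf1 to Gspt2, Pdk2 and Klhl7 (0.05 to 0.10). Fcer2a alone of the 8 tested members had another member among its 3 nearest genes.

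Most other genes of mature B cells were higher after CaCl2. Of 21 tested in uMT_Ca against uMT_sham, 17 rose, 1 fell and 3 did not pass, and 9 of the 21 were not well above background on any sham array. These 9 passed the filter only through a CaCl2 group, so the count is no independent support. For this list and those below, 17.3% of all tested genes were higher and 19.0% lower in uMT_Ca against uMT_sham. The median difference was 2.30, or 1.70 with such genes at their bound. Ly6d, a lymphoid surface gene, was at least 21.8-fold higher in uMT_Ca than in uMT_sham, and Pou2af1, a coactivator of immunoglobulin genes, at least 10.4-fold. Cd72, a lectin of B cells that myeloid cells can also express, rose by 4.45 ± 0.29 in uMT_Ca and Pou2f2 by 1.43 ± 0.19 (SE, log2). Cd24a fell by 0.87 on the log2 scale. With the filter tightened to probes that passed the background call on each of the 9 arrays, 8 genes of this list were called in uMT_Ca, 7 of them higher. Of all genes, 35.6% were called in that fit, 15.9% higher.

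Early B lineage genes gave mixed readings. Of 6 tested in uMT_Ca against uMT_sham 3 rose: the interleukin-7 receptor gene Il7r by 2.95, Vpreb3 by 2.23 and Cd93, also a gene of endothelium and myeloid cells, by 0.66 on the log2 scale. Vpreb1, a surrogate light chain gene, read -2.34, -1.58 and -2.61 on uMT_Ca+IgG arrays, -1.60, -2.21 and -2.12 on uMT_Ca arrays and -2.58, -2.65 and -3.04 on uMT_sham arrays, and its difference of 0.78 in uMT_Ca did not pass (limma adjusted p = 0.0629). Rag1 and Rag2, the recombinase genes, and Igll1, the other surrogate light chain gene, were well above background on no array. With slide row as a block, which cannot separate row from CaCl2, 1 gene of this list was called, where 20.5% of all genes were.

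Some genes of antibody-secreting cells were higher after CaCl2. Of 8 tested in uMT_Ca against uMT_sham 4 rose, 1 of them well above background on no sham array, and 4 did not pass. With median scaling 7 rose, where 23.5% of all genes were higher. Jchain, the joining chain of polymeric IgM and IgA, read 5.58, 5.41 and 4.60 on uMT_Ca+IgG arrays, 4.69, 4.80 and 3.22 on uMT_Ca arrays and -1.95, 0.17 and -2.17 on uMT_sham arrays. The CaCl2 arrays lay above the sham arrays by more than the spread within any group, with a rise of 6.51 ± 0.67 in uMT_Ca+IgG and 5.55 ± 0.67 in uMT_Ca (SE, log2). Mzb1, a chaperone gene of antibody-secreting cells, was not well above background on any sham array and was at least 14.7-fold higher in uMT_Ca+IgG and at least 8.69-fold higher in uMT_Ca. Derl3, of endoplasmic reticulum quality control, rose by 2.39 in uMT_Ca and Sdc1, also made by epithelium and injured tissue, by 1.11 on the log2 scale. The heavy chain variable gene name Igh-VJ558 rose by 7.16 ± 1.18 in uMT_Ca+IgG and 6.80 ± 1.18 in uMT_Ca (SE, log2), on a probe well above background on 2 of 3 sham arrays. Its other probe passed the background call on no sham array and was at least 6.13-fold higher in uMT_Ca+IgG and at least 2.45-fold higher in uMT_Ca. Variable genes of 1 family share sequence, so the gene behind each reading is uncertain.

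Genes of other cells moved in the same comparison, and their part in the member values was not tested. Of 20 genes of B cell receptor signalling, most of them shared with myeloid or T cells, 18 rose in uMT_Ca against uMT_sham, 2 of them well above background on no sham array. The 18 included the kinase gene Btk, higher by 4.004 ± 0.26, and Vav1, higher by 3.05 ± 0.26 (SE, log2). Of 14 T cell genes 10 rose and 1, Cd4, fell, with Cd3d higher by 4.53 ± 0.51 (SE, log2), and 2 of the 14 were well above background on no sham array. The summed level of the T cell list, in multiples of the 75th percentile, was 15.7 to 22.7 on uMT_Ca+IgG arrays, 16.4 to 31.6 on uMT_Ca arrays and 7.07 to 9.76 on uMT_sham arrays. Such a sum adds linear signals of different probes, so the brightest probes weigh most in it.

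Of 12 monocyte and macrophage genes 8 rose and 2 fell in uMT_Ca against uMT_sham, the fractalkine receptor gene Cx3cr1 by 4.48 ± 0.30 (SE, log2) upward. Those that fell were Itgam, at -1.35, and Mertk, at -0.84. The sum of the 12 genes was 278 to 388 on uMT_Ca+IgG arrays, 289 to 313 on uMT_Ca arrays and 234 to 239 on uMT_sham arrays. Itgam had the highest mean level of the list in uMT_sham, 7.42 against 6.07 in uMT_Ca, and weighed most in the sham sum. Of 8 plasmacytoid dendritic cell genes 5 rose and 2 fell, and of 6 genes of gamma delta T cells and IL-17 3 rose and 1 fell, with 1 gene that rose in each list well above background on no sham array. Of 10 genes of follicular dendritic cells and lymphoid stroma 6 rose, 2 of them likewise, with Ltb, a lymphotoxin chain that lymphocytes make, higher by 6.16 ± 0.90 and Ccl19 by 1.54 ± 0.30 (SE, log2). Genes above background on no sham array passed the filter only through a CaCl2 group, in these lists as in that of mature B cells.

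Cell types that express Ebf1 outside the B lineage were also read. Of 12 pericyte and smooth muscle genes 9 fell and 0 rose in uMT_Ca against uMT_sham, and their sum was 966 to 1287 on uMT_Ca+IgG arrays, 881 to 1384 on uMT_Ca arrays and 2774 to 3147 on uMT_sham arrays. The pericyte gene Rgs5 had a difference of -1.56 ± 0.22 (SE, log2). Of 8 adipocyte genes 1 rose and 2 fell in uMT_Ca, and 5 fell in uMT_Ca+IgG, both against uMT_sham. In uMT_Ca+IgG 14.1% of all tested genes were lower. The adipocyte sum was 32.3 to 45.1 on uMT_Ca+IgG arrays, 34.9 to 55.9 on uMT_Ca arrays and 61.8 to 104 on uMT_sham arrays. The part of these cells in the Ebf1 values was not tested. In uMT_Ca+IgG against uMT_Ca, limma called 0 genes of all of these lists.

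**Figure D4:**
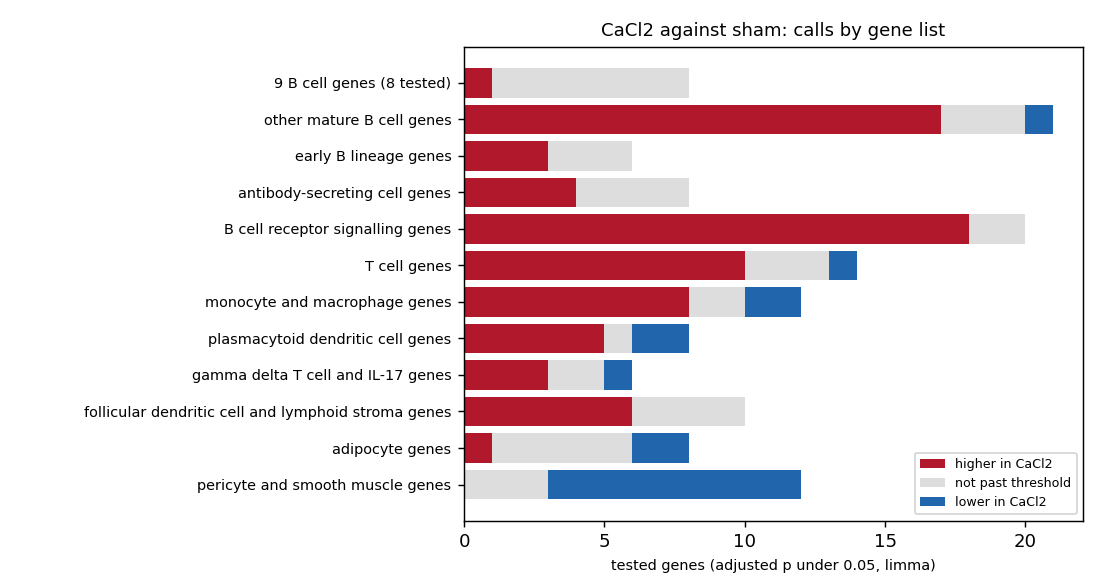
Number of tested genes in each list that were higher (red), lower (blue) or not past the threshold (grey) in uMT_Ca against uMT_sham, by limma at an adjusted p under 0.05. Of the 8 tested members 1 was higher, and of the other mature B cell genes 17 of 21 were.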

How the data were processed

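Total RNA of 9 samples of aorta was labelled with Cy3 and hybridised to 1-colour Agilent arrays, per the labels. The deposited scanner files hold spot intensity on a linear scale, background-subtracted and detrended within each array by Feature Extraction 10.7.1.1, per the file headers; the submitters' processing notes name version 9.5.1.1. The authors' deposited series table holds intensity of the same arrays, on a linear scale, not centred and with a median of 29.7 in every column; how it was made is not stated, and it served as an alternative.

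Log2 of the processed signal, less the 75th percentile of the array, was used throughout. Control and outlier spots were dropped and repeated spots averaged. The filter kept 32166 of 55681 probes, those that passed the background call on every array of 1 or more groups. Accessions (27235 probes) or symbols (3581) in the RefSeq genes of GRCm38.p6 gave the gene, otherwise the files did (2143), and 22722 stayed without a symbol. The brightest kept probe stood for a gene. The comparisons used limma 3.58.1 (R 4.3.3), 9 arrays in 1 fit with 6 residual degrees of freedom, with Benjamini-Hochberg adjustment over 16632 genes and a threshold of 0.05, and the fit was tested on simulated data. Immunoglobulin probes were adjusted over all kept probes. Named genes were the members, up to 4 called genes of each list with the smallest adjusted p, the 3 nearest in pattern, and Ighm, Vpreb1, Rag1, Jchain and Igh-VJ558 (some genes under this rule are not reported here), and others named fall outside this rule and were chosen after their values were seen. The members and lists were chosen with earlier results of these data known. Columns not mapped to a sample numbered 0.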

Additional observations from a re-analysis of the deposited data

How the results depend on the processing

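The rise of Cd79b in uMT_Ca against uMT_sham passed under all 21 other settings (highest adjusted p = 0.0195) and that in uMT_Ca+IgG under 21 of 22, the exception being the 4 arrays of the second slide row (adjusted p = 0.0532), a fit added after the data were seen. The slide row block, 1 of these settings, cannot separate row from CaCl2 in uMT_Ca against uMT_sham. Ms4a1 in uMT_Ca+IgG lost its call under 6 of 22 settings. In uMT_Ca, 1 member was called, against 4 with median scaling and 2 with quantile normalization, normexp, the series table or no filter. The number was 4 with only the 2 groups in the fit, 5 with array weights, 3 with a trended spread and 1 to 4 with 1 array left out. Called genes made up 36.3% of all genes in uMT_Ca in the main fit and 29.3% with median scaling. Over the other settings just named they ranged from 35.6% with the series table to 47.2% with array weights. With 1 array left out they made up 23.6% to 44.5%, so the member counts moved beside array-wide counts that moved too. In uMT_Ca+IgG, 2 members were called, against 1 with normexp, 5 with array weights and 1 to 4 with 1 array left out. Within the second slide row limma called 0 members. Of all genes, 25.1% were called in uMT_Ca+IgG with normexp and 47.4% with array weights. The share was 7.77% within the second slide row and 17.9% to 40.2% with 1 array left out. Over all genes, 6044 of 16632 (36.3%) were called in uMT_Ca against 10480 of 32166 (32.6%) with every probe as its own row, 3407 with slide row as a block and 3944 to 7460 with 1 array left out. In uMT_Ca+IgG against uMT_sham 4787 were called, against 2970 with median scaling, 7889 with array weights, 1293 within the second slide row and 2997 to 6747 with 1 array left out. Between uMT_Ca+IgG and uMT_Ca, leaving out 1 array gave 0 to 2 genes and 0 members. The cause of these changes was not tested.

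Signs turned for member differences that had not passed. In uMT_Ca against uMT_sham, Fcer2a was -0.15 with normexp and -0.019 with slide row as a block, and ranged from -0.12 to 0.94 with 1 array left out, and Cr2 from -0.018 to 1.08. In uMT_Ca+IgG against uMT_Ca, with 1 array left out, Ebf1 ranged from -0.13 to 0.30, Cr2 from -0.41 to 0.96, Cd22 from -0.14 to 0.77 and Pax5 from -0.062 to 1.20. Ebf1 was -0.16 there with median scaling, Cr2 -0.021 and Cd22 -0.065 with array weights, and within the first slide row, also added, Cr2, Cd22 and Pax5 were -0.12, -0.049 and -0.23.

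Whether the replicate numbers pair the samples is not stated, and 3 arrays a group cannot settle it. Of 9 same-numbered pairs, 3 deviated together with a correlation over 0.1, and 3 of 9 arrays correlated best with their own number. With the replicate number as a block, 3 members were called in uMT_Ca against uMT_sham, where 34.9% of all genes were called. A block on slide was not run, since the other slide held 1 array, and leaving that array out is the fit within 1 slide. Low signal limits Blk, Pax5 and Fcer2a, which lay at or below the background call on at least 1 array.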
